A study of Zea mays with 16 samples.

Results

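The probes described here report maize transcripts that were detected in every sample of 1.0 mm anthers and in no more than 4 of the 8 samples of 2.0 mm anthers. Of 42034 maize probes on the array, 30420 were well above background in all 8 samples of 1.0 mm, and 252 of these were well above background in at most 4 of the 8 samples of 2.0 mm (0.6% of all maize probes, 0.828% of the 30420). The 200 with the highest mean log2 processed signal at 1.0 mm are the members, and they carry 199 transcript identifiers. Because these values chose the members, their signals at 2.0 and 1.0 mm are given as a description without a test. The reverse pattern, with detection in all 8 samples of 2.0 mm and in at most 4 of 1.0 mm, was held by 90 probes (0.214% of all maize probes, 0.3% of the 29978 detected in all 8 samples of 2.0 mm).

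Anthers were staged by length. The 2.0 mm anthers are in meiotic prophase and the 1.0 mm anthers are pre-meiotic, with cells still dividing by mitosis. Both stages were taken from plants silenced by Mu killer and from Mu active siblings of the same segregating ears, each with 4 biological replicates of pooled anthers, and all plants came from a cross that carried the high copy Mutator system. RNA of both lines was labeled with different dyes and hybridized together, so that 8 arrays held 16 labeled samples. All 4 arrays of 1 stage lay on 1 slide, and stage and slide cannot be told apart. The sample labels name the same line for both dyes of an array. The Cy3 labels were kept and the Cy5 sample was given the other line, and the other reading of the dyes would exchange the line names of all values and turn the sign of every line difference without altering its size. That the dyes of an array held different lines is seen for TC313692 (probe A_92_P012515), for which the Mu killer over Mu active log2 ratio lay between -5.78 and -3.85 on all 8 arrays.

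In the maize anther, a set of somatic cell layers forms around the germinal cells before meiosis, and many transcripts are present in only part of this development. Mutator is a family of transposons that moves through the transposase of its master element, MuDR. Mu killer is a rearranged, partly duplicated derivative of MuDR that can silence that element. A whole-anther sample holds all cell layers, so that fewer cells of a type and less RNA per cell cannot be told apart.

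The array names its probes by assembled transcripts, with the prefix TC, and by single sequence accessions. The members were of the TC class for 119 of 200 (59.5%, against 64.6% of all maize probes), of single accessions for 79, and of genomic assemblies for 2. None matched an entry of the reference gene table, and they are therefore given without a gene name or a function. The lists of anther cell fate, tapetum, meiosis, histone and photosynthesis genes could not be looked up among them for the same reason. The only maize probes with names of meiotic or mitotic chromosome proteins were those of the cohesin subunits ZmSMC1, ZmSMC3 and ZmRAD21 and of the cohesin protector shugoshin (ZmSGO1), and none of them is a member. Of these 14 probes, 8 had a lower and 6 a higher level at 2.0 mm. The ZmSMC1 probes were lower by 0.79 (A_92_P006198) and by 0.69 (A_92_P041560) on the log2 scale, the 4 ZmSMC3 probes differed by -0.57 to 0.15, the 7 ZmRAD21 probes by -0.09 to 0.14 (5 of them higher) and the ZmSGO1 probe by -0.07. Defining markers of the anther cell types were not identified in the array design.

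A probe was detected, or marked, where the scanner software placed it above a cutoff of 2.6 SD over background. In each sample this cutoff was a single value of the background-subtracted signal, from 3.06 to 6.54. The background SD recorded for each spot was larger, with medians of 7.17 to 11.3 per sample over all maize probes. The SD of the cutoff was therefore not this one. The cutoff of 5 SD used below raised the same value in proportion. The processed signal is the scanner software's value after background subtraction and dye normalization, in arbitrary units. For every unmarked signal the software had put in a stand-in value set by the noise, so that the processed signal of an unmarked spot is no measurement of its transcript. Between 33632 and 36488 maize probes were detected in a 2.0 mm sample, and between 32697 and 37898 in a 1.0 mm sample. Levels that compare stages are log2 intensities after correction of the background with an offset of 50 and normalization within and between arrays. The offset draws the differences of dim probes toward 0.

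The name "lost" would go beyond the data. Only 1 of the 200 members was unmarked in all 8 samples of 2.0 mm, whereas 10 were marked in 1 sample, 24 in 2, 56 in 3 and 109 in 4, the highest number the rule allowed. Of the 1600 signals of members at 2.0 mm, 662 (41.4%) were marked. For 105 members at least 1 marked signal at 2.0 mm lay above the member's own median at 1.0 mm. For 23 members every marked signal at 2.0 mm, if any, lay below the lowest signal at 1.0 mm.

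The member unmarked in all 8 samples of 2.0 mm was TC307096 (A_92_P008994), named here after its values were seen. At 1.0 mm its processed signal was 64.5, 55.9, 22.3 and 18.5 in Mu killer and 30.2, 67.6, 34.4 and 109 in Mu active. Its level was 1.31-fold lower at 2.0 mm than at 1.0 mm when a floor was set in each 2.0 mm sample. The floor was the lowest level among marked probes of that sample, and its own level was kept where that was higher. An unmarked transcript can lie above this floor, so that the value is no strict lower bound.

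Most members were dim. The geometric mean processed signal of a member had a median of 16 at 2.0 mm, stand-in values included, and of 36.6 at 1.0 mm, where members ranged from 21.8 to 849. The median of all 30420 probes detected throughout 1.0 mm was 380 at that stage. At 1.0 mm, 172 members (86%) lay in the lowest 10% of those probes, 41 had a mean of at least 50 and 14 a mean of at least 100. In a 2.0 mm sample the median member stood at between 0.001 and 1.92 times the detection cutoff, and in a 1.0 mm sample at between 2.40 and 7.49 times. The median of all maize probes stood at between 8.68 and 24.9 times the cutoff in the 2.0 mm samples and between 8.90 and 30.9 times in the 1.0 mm samples. The last members in rank, AI670427, TC294709 and TC312702, had a mean log2 processed signal of 4.45 at 1.0 mm, and the first probes outside, TC296124, TC285483 and BM896258, had 4.44.

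On the log2 level scale the members differed between 2.0 and 1.0 mm by a median of -0.187, with a range from -1.61 to 0.953. The median difference was -0.0193 over all probes detected in all 8 samples of 1.0 mm. Without normalization between arrays the members' median was -0.203 and that of the 30420 probes was -0.329, so that the place of the members relative to other probes turned with the scaling. The level was lower at 2.0 mm in 198 members and higher in 2. It was lower by at least 1 on the log2 scale, which is 2-fold, in 3 members, against 2.79% of the 30420 probes. In 20 members every processed signal at 2.0 mm, stand-in values included, lay below every one at 1.0 mm, which 2.08% of the 30420 probes also showed. Since the rule used this contrast, nothing further was read from these counts.

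**Figure D1:**
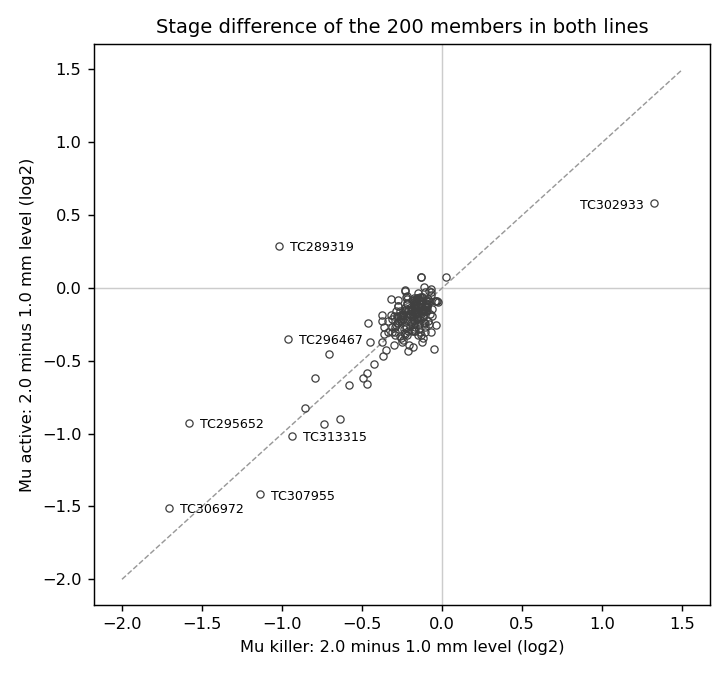
Difference in log2 level between 2.0 and 1.0 mm for each of the 200 members (circles), in Mu killer on the horizontal axis and in Mu active on the vertical axis, with the dashed line marking equal differences. Most circles lie close together, with medians of -0.18 (Mu killer) and -0.186 (Mu active), and only TC302933 lies far above 0 in both lines.

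The median stage difference of the members was -0.18 for Mu killer and -0.186 for Mu active. The level was lower at 2.0 mm in 198 members in Mu killer, in 194 in Mu active and in 194 in both. The widest contrast was TC289319 (A_92_P005073), named after its values were seen, with a stage difference of -1.02 in Mu killer and 0.29 in Mu active. A single sample was far above the rest at each stage. At 2.0 mm it was marked at 121 in Mu killer 4 and at 30.9, 16.9 and 1336 in Mu active 1, 2 and 4, and was unmarked in the other 4 samples. At 1.0 mm its processed signal was 1725, 72.4, 45.8 and 87.3 in Mu killer and 110, 66.4, 46.1 and 85.6 in Mu active. The highest value thus belonged to Mu active 4 at 2.0 mm and to Mu killer 1 at 1.0 mm.

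**Figure D2:**
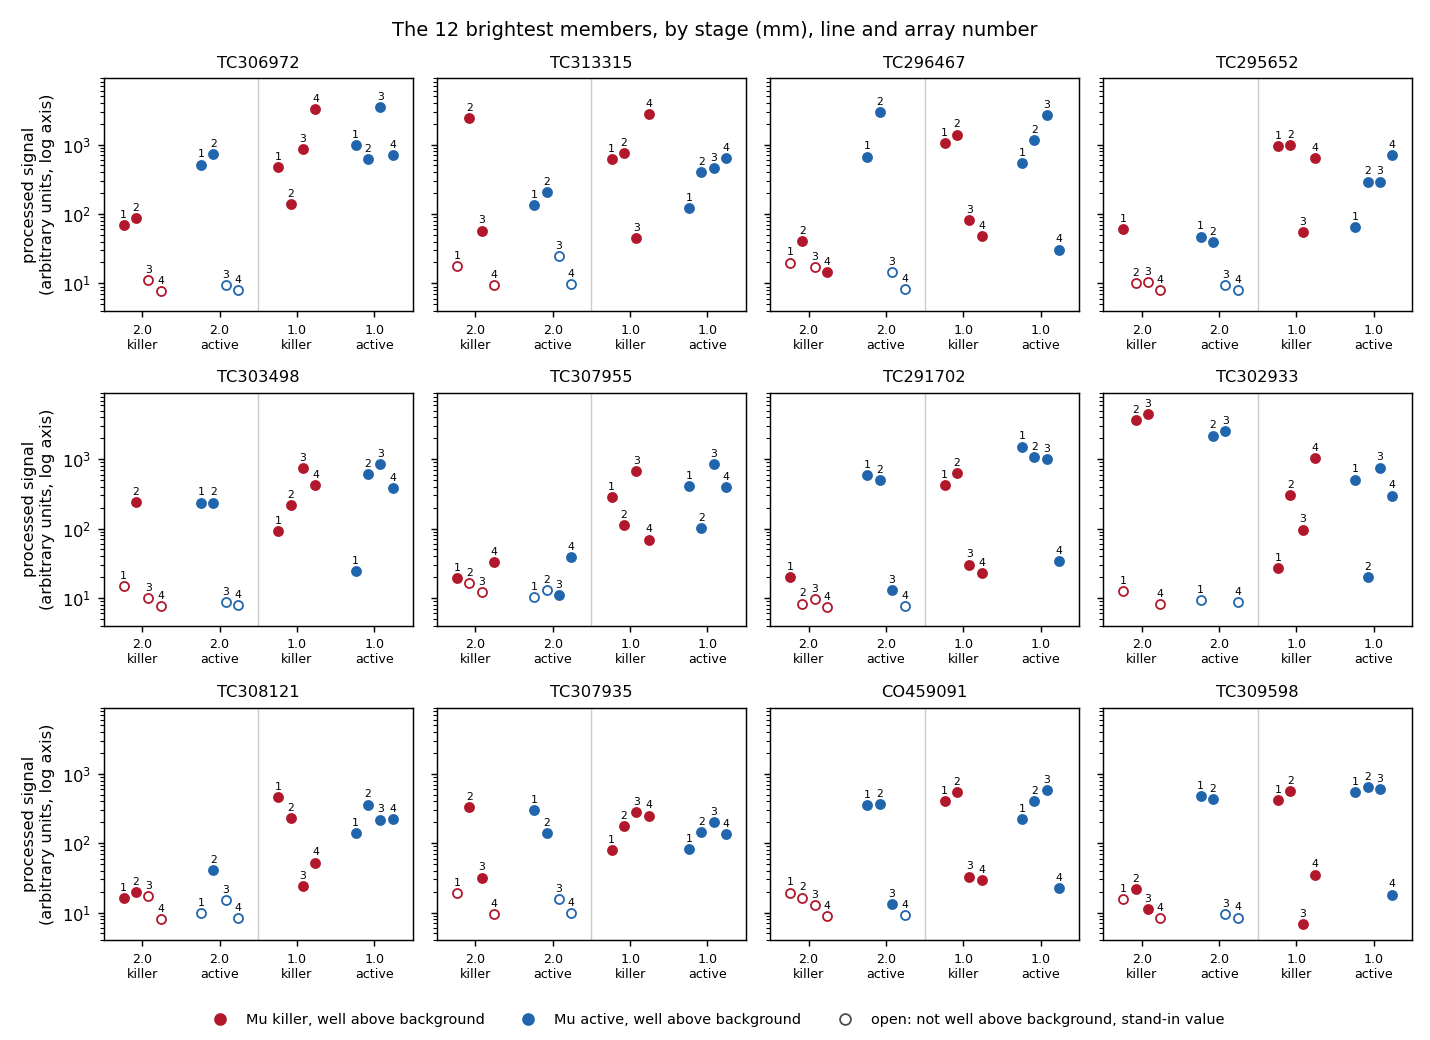
Processed signal (arbitrary units, log axis) of the 12 brightest members in each sample, by stage, line and array number, with filled points for signals well above background and open points for stand-in values of unmarked signals. In most panels the 2.0 mm samples split into bright and unmarked ones, as for TC306972, with 513 and 731 in Mu active 1 and 2 and no mark in 4 other samples.

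The brightest member, TC306972 (A_92_P000668), also had the largest fall. At 2.0 mm it was marked at 68.7 and 87.6 in Mu killer 1 and 2 and at 513 and 731 in Mu active 1 and 2, and was unmarked in replicates 3 and 4 of both lines. At 1.0 mm its processed signal was 477, 139, 853 and 3268 in Mu killer and 978, 614, 3449 and 700 in Mu active. The marked values of Mu active at 2.0 mm lay within the range of the 1.0 mm samples, and those of Mu killer lay below it. Its level differed by -1.61 on the log2 scale between 2.0 and 1.0 mm, with an SD over 8 samples of 1.1 at 2.0 mm and 1.01 at 1.0 mm.

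TC307955 (A_92_P014863) and TC295652 (A_92_P037029) were the other members with a fall of at least 1, by -1.28 and -1.25. For TC307955 the stages did not overlap. It was marked at 2.0 mm at 19.2 and 33.3 in Mu killer 1 and 4 and at 10.9 and 39.0 in Mu active 3 and 4, whereas at 1.0 mm it had 281, 113, 668 and 69.1 in Mu killer and 405, 102, 861 and 400 in Mu active. For TC295652 the marked signals at 2.0 mm were 61.2 in Mu killer 1 and 47.0 and 39.4 in Mu active 1 and 2. At 1.0 mm it had 950, 986, 54.5 and 635 in Mu killer and 64.8, 292, 293 and 701 in Mu active. Here the stages overlapped, since Mu killer 3 at 1.0 mm was below Mu killer 1 at 2.0 mm.

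Several members had single 2.0 mm samples close to or above their brightest sample of 1.0 mm. TC313315 came close to it, and TC302933 exceeded it, as did TC296467 and TC307935, which are given below. TC313315 (A_92_P006688) was marked at 2401 and 57.7 in Mu killer 2 and 3 and at 136 and 208 in Mu active 1 and 2 at 2.0 mm. At 1.0 mm it had 613, 745, 44.4 and 2738 in Mu killer and 120, 400, 456 and 641 in Mu active. TC302933 (A_92_P022018) was the only member far higher at 2.0 mm, by 0.95 on the log2 scale, with an SD of 2.25 over the 8 samples. It was marked at 3632 and 4516 in Mu killer 2 and 3 and at 2193 and 2557 in Mu active 2 and 3, and was unmarked in replicates 1 and 4 of both lines. At 1.0 mm it had 26.6, 303, 96.6 and 1034 in Mu killer and 507, 20.2, 758 and 299 in Mu active. Both samples of an array were therefore bright together at 2.0 mm but not at 1.0 mm. The other member with a higher level at 2.0 mm was TC296028 (A_92_P023613), by 0.05. Other probes of the same identifiers did not show the bright signals of TC313315 and TC302933. That of TC313315 (A_92_P034857) was marked in 0 of 8 samples at 2.0 mm and 0 of 8 at 1.0 mm. That of TC302933 (A_92_P011095) was marked in 3 of 8 samples at 2.0 mm and in 0 of 8 at 1.0 mm. The values above are therefore those of single probes.

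For 4 members the bright and dim samples were the same, a group put together after the values were seen. TC296467 (A_92_P006933) was marked at 40.2 and 14.6 in Mu killer 2 and 4 and at 671 and 2913 in Mu active 1 and 2 at 2.0 mm, against 1047, 1393, 81.0 and 47.9 in Mu killer and 547, 1153, 2692 and 30.6 in Mu active at 1.0 mm. TC291702 (A_92_P000068) was marked at 19.8 in Mu killer 1 and at 591, 496 and 12.9 in Mu active 1, 2 and 3 at 2.0 mm, against 419, 625, 30.3 and 23.1 in Mu killer and 1514, 1079.9, 1009 and 34.2 in Mu active at 1.0 mm. In both, Mu active 1 and 2 were the bright samples of 2.0 mm, and Mu killer 3 and 4 and Mu active 4 were the dim samples of 1.0 mm. The bright samples of 2.0 mm both carried Cy5, and on their 2 arrays line and dye cannot be told apart. On arrays 3 and 4 Mu active carried Cy3 and Mu killer Cy5. There TC296467 had 14.4 and 8.28 in Mu active and 16.9 and 14.6 in Mu killer, stand-in values included. TC291702 had 12.9 and 7.72 in Mu active and 9.58 and 7.41 in Mu killer. The parts of line, dye and array were not tested. The dim samples of 1.0 mm held both dyes. CO459091 (A_92_P010112) was unmarked in all 4 Mu killer samples of 2.0 mm and marked at 356, 363 and 13.3 in Mu active 1, 2 and 3, against 406, 541, 33.0 and 29.2 in Mu killer and 223, 405, 584 and 22.3 in Mu active at 1.0 mm. TC309598 (A_92_P038180) was marked at 21.5 and 11.3 in Mu killer 2 and 3 and at 483 and 429 in Mu active 1 and 2 at 2.0 mm, against 419, 569, 6.86 and 35.2 in Mu killer and 542, 639, 604 and 18.2 in Mu active at 1.0 mm. In all 4 members, Mu active 1 and 2 at 2.0 mm were brighter than the dim samples of 1.0 mm. Their stage differences were -0.66 for TC296467, -0.77 for TC291702, -0.71 for CO459091 and -0.62 for TC309598. Whether the members of this group share sequence was not tested, since probe sequences were not used here.

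TC303498 (A_92_P041727) was marked at 2.0 mm at 239 in Mu killer 2 and at 236 in both Mu active 1 and Mu active 2. At 1.0 mm it had 92.4, 218, 746 and 423 in Mu killer and 24.2, 607, 856 and 385 in Mu active. TC307935 (A_92_P008678) was marked at 2.0 mm at 334 and 31.9 in Mu killer 2 and 3 and at 302 and 138 in Mu active 1 and 2, against 78.8, 175, 280 and 249 in Mu killer and 81.1, 145, 202 and 134 in Mu active at 1.0 mm. Its highest signals belonged to 2.0 mm samples, although its mean level was lower at that stage by 0.35 on the log2 scale.

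Among the members at 1.0 mm, the SD of the level over the 8 samples had a median of 0.13 and ranged from 0.0293 to 1.40. The median was 0.237 for all probes detected throughout 1.0 mm. Most members were dimmer than those probes, and the offset draws the spread of dim probes toward 0. Nothing was therefore read from the distance between these medians. The members named above, which were chosen for brightness or for the size of their fall, had SDs of up to 1.40 (TC296467).

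TC308121 was the only identifier with 2 member probes. The first (A_92_P008312) was marked at 2.0 mm at 16.1 and 19.5 in Mu killer 1 and 2 and at 41.0 in Mu active 2, against 466, 230, 24.1 and 52.6 in Mu killer and 139, 361, 218 and 224 in Mu active at 1.0 mm. The second (A_92_P003783) was marked in a single 2.0 mm sample, at 8.92 in Mu killer 4, against 151, 75.6, 44.5 and 32.5 in Mu killer and 68.0, 77.2, 101 and 217 in Mu active at 1.0 mm. Their stage differences were -0.84 and -0.56, and the stages overlapped for the first probe and not for the second.

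Beyond the members, 48 other probes carried the identifier of 23 members. These probes were not chosen by the rule but shared its samples and slides. Of the 48, 26 were detected in all 8 samples of 2.0 mm, 7 in between 5 and 7 samples and 15 in at most 4, and 27 were detected in all 8 samples of 1.0 mm. Their median stage difference was -0.0126, and 28 were lower at 2.0 mm. Of the 27, 18 were lower and 9 higher at 2.0 mm, with a median difference of -0.143, whereas the other 21 were not detected throughout 1.0 mm. MAGI4_125953 supplied 11 of the 48 and TC287491 supplied 8, among them 4 of the 9 that were higher. Which part of a transcript each probe covers is not given in the sources used here.

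The other probe of BI359392 (A_92_P008986) had the largest fall among them, by -2.77, and was detected in all 16 samples. Its processed signal was 112, 94.6, 104 and 184 in Mu killer and 370, 342, 215 and 77.5 in Mu active at 2.0 mm, against 2885, 1372, 3429 and 4433 in Mu killer and 1358, 1267, 1769 and 4435 in Mu active at 1.0 mm. The stages did not overlap. The member probe of BI359392 (A_92_P035021) was much dimmer at 1.0 mm, between 15.2 and 38.3 over the 8 samples, and differed by -0.13.

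For TC304363 the other probe (A_92_P004410) differed by -2.56. It had 7514, 613, 887 and 903 in Mu killer and 1409, 1954, 1800 and 313 in Mu active at 2.0 mm, against 8041, 11739, 6745 and 4516 in Mu killer and 7782, 7992, 4156 and 13437 in Mu active at 1.0 mm. All but Mu killer 1 at 2.0 mm lay below every 1.0 mm sample. The member probe (A_92_P007136) differed by -0.22. TC312702, whose member probe (A_92_P012931) was the last in rank, had a far brighter other probe (A_92_P029189). This probe was detected in all 8 samples of each stage. Its mean log2 processed signal was 12.3 at 2.0 mm and 12.7 at 1.0 mm, and its level differed by -0.32. Further TC312702 probes were dim, with differences of -0.16 (A_92_P005630), -0.09 (A_92_P040250) and -0.09 (A_92_P034908). In the other direction, a probe of TC287491 (A_92_P020971) was higher at 2.0 mm by 2.06, with 1224, 797, 2432 and 2956 in Mu killer and 637, 639, 1870 and 1737 in Mu active at 2.0 mm, against 90.6, 213, 236 and 298 in Mu killer and 128, 212, 136 and 170 in Mu active at 1.0 mm.

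The marks at 2.0 mm chose the members, and their distribution over the lines is therefore given as a description without a test. Fewer members were detected in Mu killer than in Mu active on all 4 arrays of 2.0 mm as the lines were assigned. The numbers of members detected were 50, 34, 41 and 106 in Mu killer and 127, 105, 73 and 126 in Mu active. The difference averaged -50 members per array (SD 28.2, n = 4). It was -77 and -71 on arrays 1 and 2, where Mu killer carried Cy3, and -32 and -20 on arrays 3 and 4, where it carried Cy5. The part of the dye in this difference was not tested. Over all maize probes the differences were -2445, -1560, -1068 and 14, so that on 3 of 4 arrays fewer probes of any kind were detected in Mu killer. The processed signal found at the detection cutoff moved with this difference. It was 15, 12.5, 13.4 and 8.62 in Mu killer samples and 10.7, 9.66, 10.5 and 8.48 in Mu active at 2.0 mm, higher in Mu killer on each array. Its part in the difference was not tested. When a mark and a processed signal above 15 were asked of every sample, a setting chosen after seeing the data, 49, 30, 32 and 71 members were detected in Mu killer and 114, 76, 55 and 101 in Mu active, with a mean difference of -41.

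**Figure D3:**
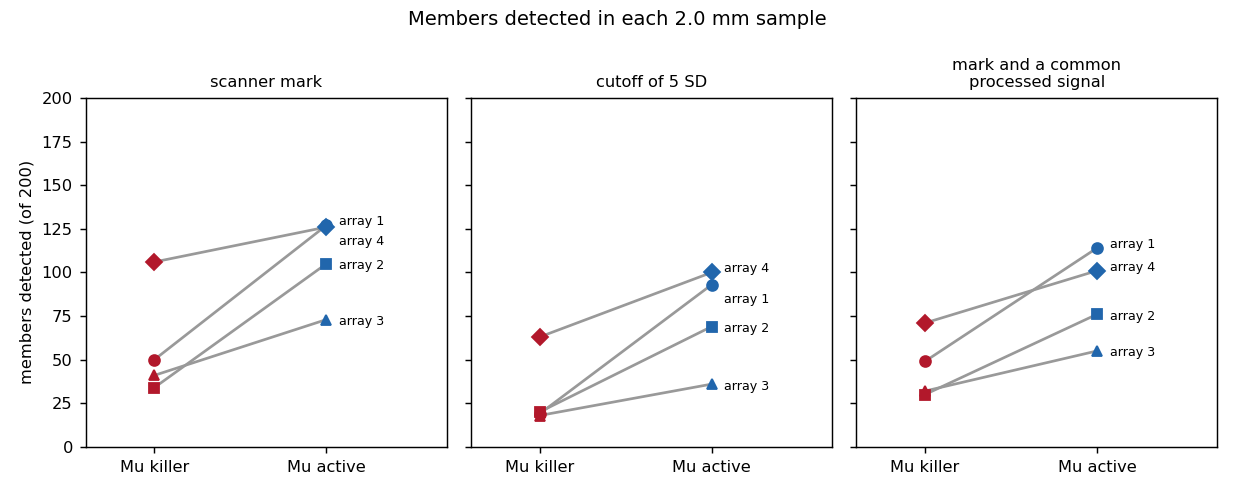
Number of members detected in each 2.0 mm sample of Mu killer and Mu active (vertical axis, of 200), with a line joining both samples of an array, by the scanner's mark, by a cutoff of 5 SD, and by the mark plus a common processed signal. On each of the 4 arrays the Mu killer point is below the Mu active point in all 3 panels, with mean differences of -50, -44.5 and -41.

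By member, 121 (60.5%) were detected in more Mu active than Mu killer samples of 2.0 mm, against 4.99% of the 30420 probes and 13.1% of all maize probes. In more Mu killer samples 15 (7.5%) were detected, against 0.953% of the 30420 and 4.91% of all maize probes, and 64 were detected in as many of both. No Mu killer sample detected 33 members (16.5%), against 0.138% of the 30420 and 8.2% of all maize probes, and no Mu active sample detected 5 (2.5%), against 0.0394% and 6.86%. Since the rule asked for missing marks at 2.0 mm, nothing was read from the distance between these shares. On single arrays, 39, 22, 20 and 76 members were detected in both samples, 11, 12, 21 and 30 in Mu killer only, 88, 83, 53 and 50 in Mu active only and 62, 83, 106 and 44 in neither.

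In 5 members detection at 2.0 mm followed the line fully, with none of the Mu killer samples and all 4 Mu active samples marked, and no member had the opposite pattern. Among the 30420 probes 6 had the first pattern (0.0197%) and 0 the second. Every probe with either pattern meets the detection part of the rule, so that nothing was read from this count. Their marked signals at 2.0 mm lay between 9.08 and 89.9. DR805736 (A_92_P025585) was marked at 19.6, 13.6, 27.2 and 89.9 in Mu active at 2.0 mm, and DT651774 (A_92_P008921) at 27.7, 22.3, 26.0 and 54.2. BG517724 (A_92_P033515) was marked at 89.5, 9.46, 28.3 and 66.0, TC310498 (A_92_P030526) at 22.5, 16, 13.8 and 9.08, and TC284059 (A_92_P038486) at 13.6, 11.6, 16.7 and 25.4. Most of these signals lay above the processed signal at the cutoff of the Mu killer sample on the same array. Not all did, since TC284059 had 13.6 against 15 on array 1 and BG517724 had 9.46 against 12.5 on array 2. The part of the cutoff in these marks was not tested. In the limma fit the Mu killer over Mu active log2 ratio at 2.0 mm was -0.23 for DR805736 (SE 0.11), -0.12 for DT651774 (SE 0.17), -0.11 for BG517724 (SE 0.10), -0.05 for TC310498 (SE 0.06) and -0.04 for TC284059 (SE 0.09). The Mu killer values in these ratios come from unmarked spots.

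At 1.0 mm, where all members were detected, the levels of the lines were compared within arrays. None of the members differed between the lines after Benjamini-Hochberg adjustment over the 30420 probes (lowest adjusted p = 0.717, limma), and 1 of the 30420 did (0.00329%). An unadjusted p under 0.05 was reached by 13 members (6.5%), against 6.43% of the 30420 probes. All 13 were lower in Mu killer, whereas among the 30420 probes 3.72% were lower and 2.71% higher. The log2 ratio of these 13 ranged from -1.32 (TC291702) to -0.139, with a median of -0.215. Both an unadjusted p under 0.05 and a fold of at least 1.5 were reached by 1 member, TC291702, against 1.42% of the 30420 probes. The same direction on all 4 arrays was seen for 31 members (15.5%), against 14.4% of the 30420 probes.

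The 3 lowest unadjusted p-values among members lower in Mu killer belonged to TC306936, TC302499 and CF035761. TC306936 (A_92_P033925) had 14.6, 52.4, 18.6 and 28.6 in Mu killer and 64.1, 149, 51.1 and 23.0 in Mu active at 1.0 mm, a log2 ratio of -0.36 (SE 0.10, adjusted p = 0.717), with the opposite order of the signals on array 4. TC302499 (A_92_P014873) had 37.2, 33.1, 31.2 and 35.3 in Mu killer and 77.2, 34.6, 65.1 and 108 in Mu active, a log2 ratio of -0.22. CF035761 (A_92_P005123) had a log2 ratio of -0.21. Toward higher levels in Mu killer the lowest p-values belonged to TC300466 (0.18), TC312702 (0.13) and CF038338 (0.12), all with an adjusted p of 0.717. None of these differences passed the threshold.

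The members shared a position on the array that the rule did not use. Of the 200 members 111 (55.5%) lay in the first 152 of 532 rows, a division chosen after their positions were seen, against 28.3% of all maize probes, 28.0% of the 30420 probes and 16.7% of the probes with the reverse pattern. The rows follow the numbers in the probe names (Spearman's rho across probes 1.0), so that position and probe number cannot be told apart. The dimmest signals of these rows differed between the stages. The 10th percentile of the background-subtracted signal was lower in the first 152 rows than in the other rows in 8 of 8 samples of 2.0 mm and in 4 of 8 samples of 1.0 mm. In units of the cutoff it ranged from -0.478 to 0.275 in the first rows and from -0.131 to 0.534 in the others at 2.0 mm, and from -0.441 to 0.822 and from -0.447 to 1.14 at 1.0 mm. The part of array position in the choice of the members was not tested. At 2.0 mm, 14 to 75 of the 111 members in the first rows were detected per sample and 15 to 61 of the other 89.

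**Figure D4:**
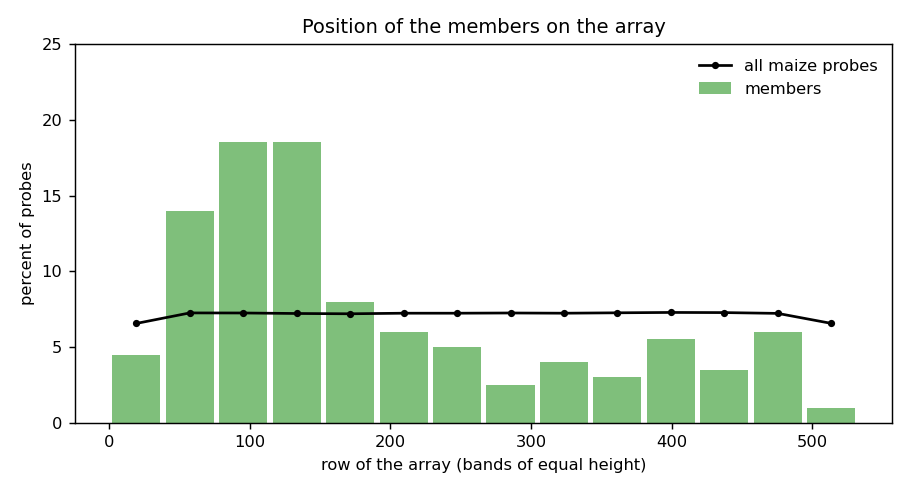
Percent of the 200 members (bars) and of all maize probes (points and line) in bands of equal height along the rows of the array. The members are crowded into the first part of the array, where 55.5% of them lie in the first 152 of 532 rows, and all maize probes are spread evenly.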

How the data were processed

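RNA of 2.0 and 1.0 mm anthers was measured on 8 Agilent maize arrays with 2 dyes. The authors extracted the scans with Agilent Feature Extraction 9.5.3.1, per the file headers, and deposited for each spot and color the intensity, the local background, the processed signal and marks, and a log10 ratio of the red over the green channel. Both deposited files of an array were identical on 8 of 8 arrays and counted once. A deposited table of normalized intensity per channel was used as an alternative. How it was normalized is not given in the sources used here, and its replicate order is not settled, so that only means over all samples of a stage were taken.

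Members were found from the scanner's marks and processed signals. For levels, control spots were left out and background was removed from the mean intensities by normexp (offset 50, local background medians), then normalized by loess within arrays and by Aquantile between arrays. Between 3 and 13 outlier spots per array were left out, and no spot was saturated. Line ratios were fitted within arrays with limma 3.58.1 in R 4.3.3 over both stages with a dye term, and p-values were Benjamini-Hochberg adjusted over the 30420 probes detected in all 8 samples of 1.0 mm. On simulated ratios with 200 changed probes for the 1.0 mm comparison, 67 of 105 changed 2-fold and 87 of 95 changed 4-fold were called, with 8 false calls. Most members were dim, and the offset makes the ratios of dim probes smaller. These shares therefore do not tell how often a 2-fold or 4-fold change in a member's transcript would be called. The lines were paired by the array they shared. A planned exact permutation test of the members detected per line at 2.0 mm is not given, since the marks it would use chose the members. Python 3.11.15, numpy 2.4.6, pandas 2.3.3 and matplotlib 3.10.9 were used. With 4 arrays per stage, precision is limited by their number.

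Named members were the 10 brightest, the 10 with the largest fall, those detected in 1 line only at 2.0 mm, the 3 lowest p-values between the lines in each direction, members sharing an identifier, and the probes next to the limit of the rule. Exceptions are stated. The members and lists were chosen with earlier results of these data known. Alternatives covered the detection cutoff, the rule's limits, each line alone, background correction, normalization, dye term, block, outlier spots and dropping single arrays.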

Additional observations from a re-analysis of the deposited data

Results flagged for a closer look

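Levels of the named members were searched for single samples far from the other 7 of their stage. The median level of all members at each stage and the members detected per 2.0 mm sample were searched too. This covered 55 groups of samples, of which about 1 in 20 would stand out by chance. There were 5 such values, all of them high. At 2.0 mm, TC313315 had a level of 10.64 in Mu killer 2, against 6.42 to 7.80 in the other samples, TC296467 had 10.96 in Mu active 2, against 6.60 to 8.56, and DR805736 had 7.19 in Mu active 4, against 6.54 to 6.76. TC312702 had 6.74 in Mu killer 1 at 2.0 mm, against 6.59 to 6.66, a spot that was not marked as above background. At 1.0 mm, TC300466 had 7.59 in Mu killer 2, against 6.76 to 7.14. All values are log2 levels.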

How the results depend on the processing

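The number of probes that meet the detection part of the rule, 252, was 289 at a cutoff of 5 SD and 234 with a common processed signal, a setting chosen after seeing the data, and 85 and 136 of the 200 members were among them. It was 50 with at most 2 of 8 samples of 2.0 mm and 2 with 0 of 8. Leaving out single arrays gave 282 to 704, the highest without 1.0 mm replicate 1, and 381 without 1.0 mm replicate 2. For each line alone, marks were asked in all 4 samples of 1.0 mm and in at most 2 of the 4 of 2.0 mm. This gave 1002 in Mu killer alone and 474 in Mu active alone. Counts for a single line or without an array rest on fewer samples than the 252. The number of members detected in no 2.0 mm sample, 1, was 20 at 5 SD and 2 to 9 without single 2.0 mm arrays, with 6, 2, 3 and 9 without replicates 1, 2, 3 and 4.

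The members' median stage difference, -0.187, was -0.542 with an offset of 0, -0.999 for processed signals scaled to the 75th percentile, where unmarked spots hold stand-in values, and -0.063 for the 134 members with deposited normalized intensities at both stages, and -0.202 to -0.172 without single arrays. With the deposited intensities 30 of the 134 members were higher at 2.0 mm, against 2 of 200 in the main setting. Of the named members, 6 changed sign. With deposited intensities, which leave out unmarked spots, TC313315 was at 0.71, TC296467 at 0.82, TC303498 at 0.02, TC307935 at 0.25 and TC300466 at 0.22, and with processed signals TC302933 was at -0.02. The cause of these changes was not tested.

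The number of members that differed between the lines at 1.0 mm stayed 0 under every alternative with an adjusted p, with 2 to 23 members at an unadjusted p under 0.05, and was 1 when an unadjusted p under 0.05 was asked together with a 1.5-fold difference. Both lines were paired by array. With no replicate block it was 0, with 11 members at an unadjusted p under 0.05. The mean line difference in members detected was -60 to -41 without single 2.0 mm arrays. Dim signals near the cutoff limit most of these values.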
